A study of Mus musculus with 6 samples.

Results

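Neutrophils carry ready-made proteins in granules, and the genes described here are 10 mouse genes for such proteins, grouped by the granule that holds them. The primary granule genes are Mpo, Elane, Prtn3 and Ctsg, the secondary granule genes are Ltf, Camp, Ngp and Lcn2, and the tertiary granule genes are Mmp8 and Mmp9. They were found by exact match of the symbol among the 21956 genes of the deposited table, and all 10 were present and passed the filter on low counts. The rule uses symbols and granule classes, not measured values, but the members and the lists below were chosen with earlier results of these data known.

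Granules are filled in sequence while a neutrophil matures in the bone marrow. Genes of primary, or azurophil, granules are transcribed mainly in promyelocytes, genes of secondary, or specific, granules later in myelocytes and metamyelocytes, and genes of tertiary, or gelatinase, granules later still. Transcripts of primary granule genes are low in mature neutrophils, while several later granule genes remain transcribed or can be switched on again at sites of inflammation. The assignment of Mmp8 to tertiary granules follows the grouping used here, and in humans the MMP8 protein is usually described as a specific granule protein.

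Total RNA from mouse lung tissue was sequenced in 6 libraries, 3 labelled Aalter and 3 labelled VE. The series title names alpha tocopherol (vitamin E), allergic airway inflammation and ferroptosis of ILC2 in relation to LKB1, but the labels do not spell out either group name and give no strain, age, sex, dose or time. The labels do not state whether each library had its own animal, so p-values here reflect the variation among these libraries, part of which may be technical. The comparison asks how the libraries labelled VE differ from those labelled Aalter.

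The estimated counts summed to between 11617074 and 16205053 per library. Across the 12551 genes tested, the quasi-likelihood test of edgeR, with p-values adjusted by Benjamini-Hochberg and a threshold of 0.05, called 12.8% higher in VE (1612 genes) and 19.5% lower (2442 genes), or 32.3% in either direction. Scaling by library size alone moved the median log2 fold change of all genes from 0.02 to -0.12, and the split of calls to 495 higher and 3231 lower. The library Aalter-1 lay apart from the other Aalter libraries on the first principal component, at -2.69 against 64.4 and 58.5, with VE between -42.1 and -37.8. Markers of lung epithelium were low beside neutrophil genes, although the tissue is labelled lung: Sftpc, the surfactant protein C gene of alveolar type II cells, had a mean of 13.5 CPM (TMM-scaled normalised read counts) in Aalter and 15.9 CPM in VE. The neutrophil gene S100a9, for part of calprotectin, had 12324 ± 899 CPM (SD, n = 3) in Aalter and 19159.9 ± 2239 CPM in VE. In such bulk RNA, fewer cells of a type and less RNA per cell cannot be told apart.

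The sequence just upstream of each gene's RefSeq start was read from RefSeq (GRCm38.p6), where 9 of the 10 genes had an entry. Mmp9 had none. The 250 bases before each start were searched on both strands for AGGAAGT, a core of the kind bound by the ETS factor PU.1, and for TTNNGCAA, the kind bound by C/EBP factors, which differ in timing and role during granulocyte maturation. The motif letters were chosen after these promoters had been read, so the matches carry no test. A match is a description of letters and not a site of binding. AGGAAGT was present in all 4 primary granule genes, in 0 of 4 secondary granule genes and in Mmp8, against 7.69% of all 32851 promoters of this length. These 4 windows of 30 bases are shown because the primary granule genes share the motif, printed in capitals, each at a different distance from the start.
Mpo, chr11:87793550-87793579, plus strand: tggagagagagAGGAAGTtgcctttgtccc
Elane, chr10:79886217-79886246, plus strand: gtgtcccagggAGGAAGTagggctgtggcc
Prtn3, chr10:79879562-79879591, plus strand: aaactggaaggAGGAAGTgggacccacagc
Ctsg, chr14:56102762-56102791, minus strand: agaggaagaaaAGGAAGTagtcacctgttt
The motif began 223 bases before the start in Mpo, 84 in Elane, 94 in Prtn3 and 206 in Ctsg. The motif CAACGG, of the kind bound by Myb, was present in 2 of the 4 primary granule genes, Prtn3 and Elane, in 0 of the other genes, and in 4.05% of all promoters.

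The motif TTNNGCAA was present in 0 of 4 primary granule genes, in 3 of 4 secondary granule genes (Ltf, Ngp and Lcn2, not Camp) and in Mmp8, against 9.56% of all promoters. The windows below show the matches in capitals, on either strand, and Mmp8 is shown with both kinds of match, where ACTTCCT is AGGAAGT read on the other strand. RefSeq starts differ from the GENCODE gene bounds given with the values, for Prtn3 by several kb. The Lcn2 window, which holds its only match, and the second Ngp window overlap annotated GENCODE exons of these genes, so they lie upstream of the RefSeq start only. The CAACGG match of Elane, 51 bases before its RefSeq start, likewise lies past the first base of the GENCODE gene.
Ltf, chr9:111019206-111019235, plus strand: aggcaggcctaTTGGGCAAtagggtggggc
Ngp, chr9:110419659-110419688, plus strand: gtcctggtttaTTGCCCAAacctccttgcc
Ngp, chr9:110419778-110419807, plus strand: tttatgtcaccggcagttcTTGGGCAAggc
Lcn2, chr2:32387937-32387966, minus strand: agcccttcctgTTGCTCAAccttgcacagt
Mmp8, chr9:7558399-7558428, plus strand: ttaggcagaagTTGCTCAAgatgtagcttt
Mmp8, chr9:7558197-7558226, plus strand: taactagcacaACTTCCTcattacacacag
For context, the stretch of 229 bases that ends just before the Ltf gene's first annotated base, chr9:111019042-111019270 on the plus strand, reads as follows, with the same motif in capitals.
Ltf upstream: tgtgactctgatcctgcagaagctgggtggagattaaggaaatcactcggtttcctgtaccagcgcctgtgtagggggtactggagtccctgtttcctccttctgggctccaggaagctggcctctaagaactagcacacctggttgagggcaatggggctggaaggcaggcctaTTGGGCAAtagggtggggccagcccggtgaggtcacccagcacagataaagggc

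The primary granule genes were the lowest in level, while the secondary and tertiary granule genes were interleaved. Relative to transcript length, Lcn2 and Ngp were the highest at 1302 ± 252 and 1057 ± 169 CPM per kb in Aalter (SD, n = 3), followed by Mmp8 at 286 ± 60.9, Camp at 177 ± 35.0 and Mmp9 at 76.2 ± 9.94. Ltf was at 53.2 ± 11.8, Prtn3 at 16.1 ± 1.02, Ctsg at 16 ± 3.78, Mpo at 10.7 ± 0.354 and Elane at 9.58 ± 3.22 CPM per kb. Inside each library, Lcn2 was 1.196 to 1.29 times Ngp per kb. Prtn3 over Ctsg per kb lay on both sides of 1 among the Aalter libraries, at 0.86 to 1.22, as did Mpo over Elane at 0.937 to 1.75, so the order within these pairs was not resolved in Aalter. In VE the order of the 6 later granule genes was the same, and the primary granule genes again were the lowest, at 8.26 to 19.1 CPM per kb. The 4 primary granule genes together had 61.7 to 78.95 CPM in Aalter and 43.6 to 85.8 CPM in VE. They made up 1.19%, 1.93% and 1.92% of the summed CPM of the 10 genes in the Aalter libraries and 1.14%, 1.11% and 0.641% in the VE libraries. All 10 genes together took 0.563%, 0.391% and 0.424% of the counts in Aalter and 0.715%, 0.701% and 0.6585% in VE.

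**Figure D1:**
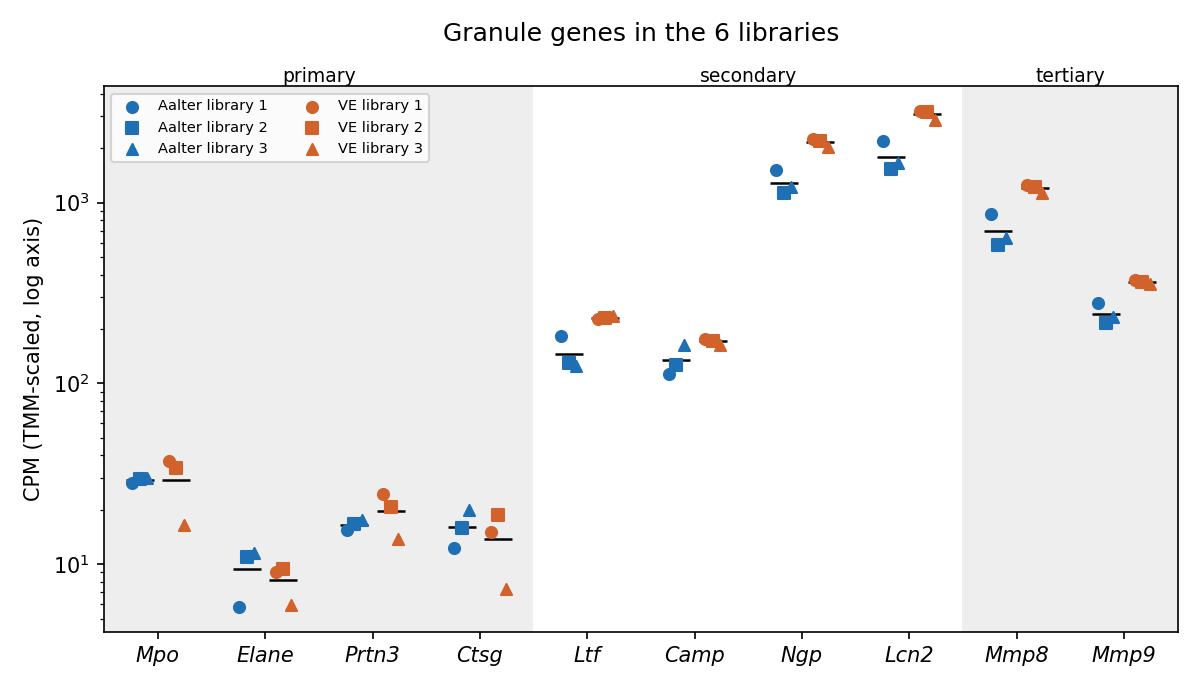
Level of each granule gene in each of the 6 libraries, in CPM on a log axis. Points are single libraries and the short lines are group means. The 5 genes Ltf, Ngp, Lcn2, Mmp8 and Mmp9 sit higher in all 3 VE libraries than in all 3 Aalter libraries, while the primary granule genes overlap.

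Of the 4 primary granule genes, 0 passed the test in either direction, against 32.3% of all genes tested, and with 4 genes this count is close to that background. Mpo (ENSMUSG00000009350, chr11:87793581-87804413, plus strand in mm10), the myeloperoxidase that makes hypochlorous acid, had 28.2, 29.7 and 30.1 CPM in the Aalter libraries and 37.4, 33.9 and 16.5 CPM in the VE libraries. The groups overlapped, with VE-1 and VE-2 above and VE-3 below all Aalter libraries. The log2 fold change of VE relative to Aalter was -0.01 ± 0.28 (SE; 95% interval -0.66 to 0.65; adjusted p = 0.989 in edgeR's quasi-likelihood test, Benjamini-Hochberg over all genes, as for every adjusted p below). Its SD was 0.974 CPM in Aalter and 11.2 CPM in VE.

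Elane (ENSMUSG00000020125, chr10:79886247-79888215, plus strand), neutrophil elastase, a serine protease, had 5.78, 11.01 and 11.5 CPM in Aalter against 9.03, 9.39 and 5.96 CPM in VE. Aalter-1 and VE-3 were the lowest libraries of their groups, and the groups overlapped. The log2 fold change was -0.21 ± 0.30 (95% interval -0.91 to 0.48, adjusted p = 0.603). Prtn3 (ENSMUSG00000057729, chr10:79874476-79883174, plus strand), proteinase 3, a close relative of elastase whose gene ends 3073 bases before Elane and overlaps the neighbouring gene Plppr3, had 15.4, 16.6 and 17.5 CPM in Aalter against 24.3, 20.6 and 13.8 CPM in VE. Again VE-1 and VE-2 were above and VE-3 below the Aalter range, and the log2 fold change was 0.25 ± 0.21 (95% interval -0.23 to 0.73, adjusted p = 0.379). The strand setting of the counting is not given in the sources used here, so reads over shared bases could not be told apart.

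Ctsg (ENSMUSG00000040314, chr14:56099881-56102574, minus strand), cathepsin G, a serine protease, had 12.3, 15.9 and 19.9 CPM in Aalter against 15.1, 18.8 and 7.33 CPM in VE. The groups overlapped and VE-3 was the lowest of all 6 libraries. The log2 fold change was -0.23 ± 0.34 (95% interval -1.03 to 0.58, adjusted p = 0.635). Intervals of the 4 genes spanned both directions, and depth adds to them, since single counts ran from 87 to 522 for primary granule genes and from 1507 to 44776 for the others.

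Among the 6 secondary and tertiary granule genes, 5 rose in VE and Camp did not pass the test, against 12.8% of all genes tested called higher. The same 5 genes were higher in every VE library than in every Aalter library, against 25.6% of all genes tested. None of the 10 was lower in every VE library, against 26.3% of genes, and 51.9% of genes did not overlap in either direction. Ltf (ENSMUSG00000032496, chr9:111019271-111042767, plus strand), lactoferrin, an iron-binding antimicrobial protein, had 183, 129 and 126 CPM in Aalter against 227, 229 and 235 CPM in VE. The groups did not overlap, and Aalter-1 was the highest library of its group. Its fitted level was 1.58-fold higher in VE (log2 fold change 0.66 ± 0.15, 95% interval 0.30 to 1.02, adjusted p = 0.0202).

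Camp (ENSMUSG00000038357, chr9:109847379-109849617, minus strand), the cathelicidin antimicrobial peptide, had 113, 126 and 164 CPM in Aalter against 177, 173 and 162 CPM in VE. Aalter-3 lay within the VE range and the groups overlapped. The log2 fold change was 0.35 ± 0.14 (95% interval 0.01 to 0.69, adjusted p = 0.1003). In Aalter its order of libraries was opposite to that of Ltf: Aalter-1 was the lowest for Camp and the highest for Ltf.

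Ngp (ENSMUSG00000032484, chr9:110419747-110423012, plus strand), neutrophilic granule protein, a cystatin-like protein, had 1524, 1126 and 1226 CPM in Aalter against 2239, 2195 and 2022 CPM in VE. All VE libraries were above all Aalter libraries, with Aalter-1 the highest of its group. The fitted level was 1.67-fold higher (log2 fold change 0.74 ± 0.14, 95% interval 0.41 to 1.06, adjusted p = 0.01202). Lcn2 (ENSMUSG00000026822, chr2:32384633-32388252, minus strand), lipocalin 2, which binds bacterial siderophores, had 2184, 1534 and 1649 CPM in Aalter against 3209, 3176 and 2849.8 CPM in VE. The groups did not overlap and the order of libraries was the same as for Ngp. The fitted level was 1.72-fold higher (log2 fold change 0.78 ± 0.15, 95% interval 0.42 to 1.15, adjusted p = 0.0135). Lcn2 is also expressed by epithelium and macrophages.

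The tertiary granule genes both rose. Mmp8 (ENSMUSG00000005800, chr9:7558456-7568485, plus strand), a collagenase, had 862, 584 and 636 CPM in Aalter against 1245, 1221 and 1133 CPM in VE. The groups did not overlap, and the fitted level was 1.73-fold higher (log2 fold change 0.79 ± 0.16, 95% interval 0.42 to 1.16, adjusted p = 0.0142). Mmp9 (ENSMUSG00000017737, chr2:164940780-164955850, plus strand), gelatinase B, had 277, 216 and 232 CPM in Aalter against 374, 362 and 356 CPM in VE. The groups did not overlap, and the fitted level was 1.503-fold higher (log2 fold change 0.59 ± 0.12, 95% interval 0.32 to 0.86, adjusted p = 0.0133). Over the 10 genes the median log2 fold change was 0.47, against 0.02 over all genes tested, and by class it was -0.11 for primary, 0.70 for secondary and 0.69 for tertiary granule genes.

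**Figure D2:**
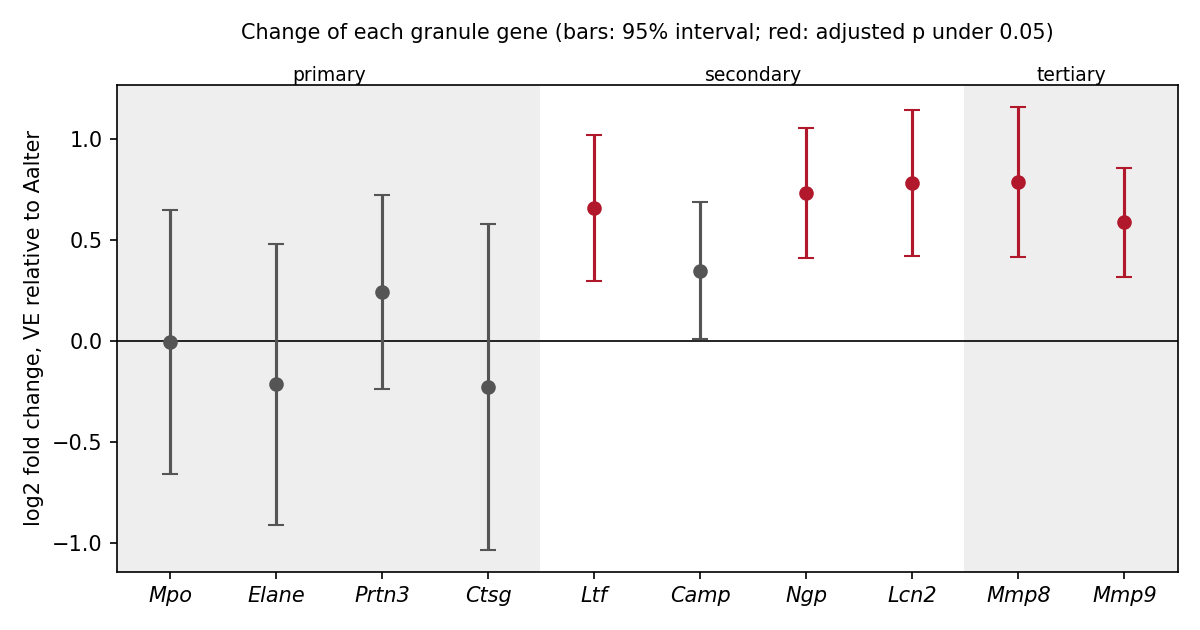
Log2 fold change of each granule gene in VE relative to Aalter, with its 95% interval. Red points have an adjusted p under 0.05 in edgeR's quasi-likelihood test. The 5 red points are Ltf, Ngp, Lcn2, Mmp8 and Mmp9, at 0.59 to 0.79, and the intervals of the 4 primary granule genes include 0.

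The 5 calls were sensitive to which libraries entered the fit. Leaving out any 1 library other than Aalter-1 left 0 of the 5 calls, with log2 fold changes of 0.51 to 0.81 and adjusted p from 0.0502 to 0.0889 over those fits, in which 2 to 110 genes were called higher in all. Without Aalter-1 all 5 were called, and Ltf then had a log2 fold change of 0.86 (adjusted p = 3.9e-07). Without Aalter-1 and VE-1 together, Elane was called lower, with a log2 fold change of -0.56 (adjusted p = 0.0207). Scaling by library size alone ended the call for Ltf (0.52, adjusted p = 0.0586), and a replicate block with GC content and length trends removed ended those for Ngp (0.55, adjusted p = 0.0595) and Mmp8 (0.49, adjusted p = 0.0608). With GC content and length trends removed, Camp had a log2 fold change of 0.01 (adjusted p = 0.983).

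**Figure D3:**
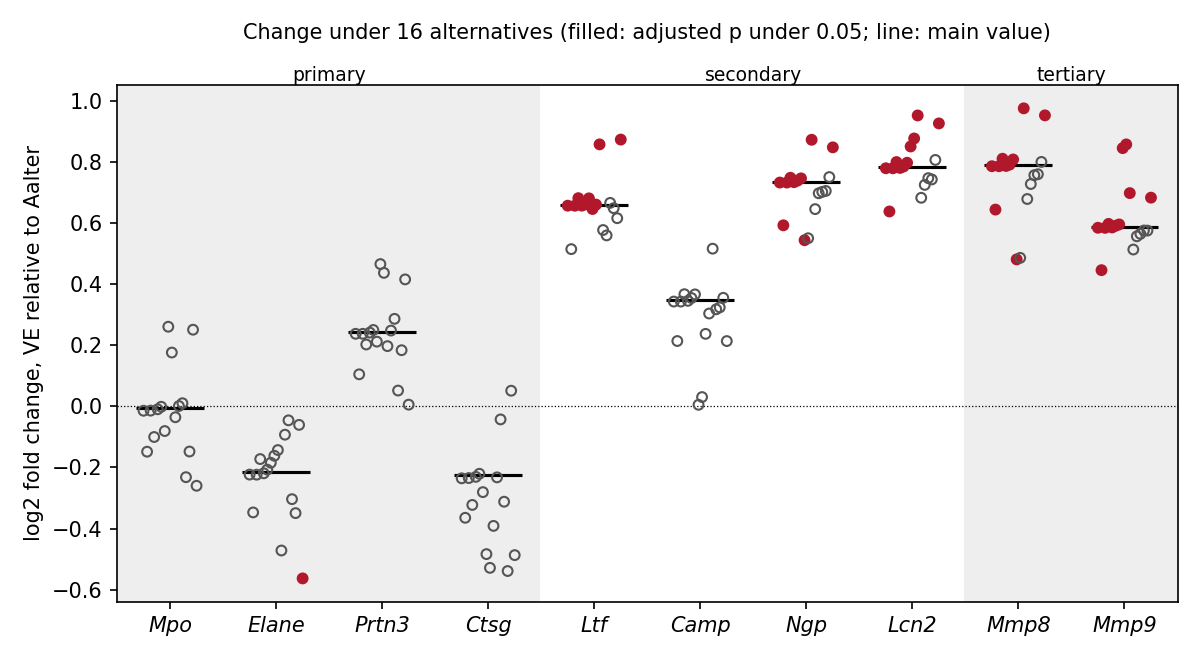
Log2 fold change of each granule gene under 16 alternative settings. Each point is a setting, filled where its adjusted p was under 0.05, and the line is the value given in the text. The 5 genes called in the text stay above 0 at every setting, from 0.45 to 0.98, but are not filled at 5 or 6 of them.

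The class difference was also computed inside each library, as a ratio that does not depend on how libraries are scaled to each other. Secondary granule transcripts exceeded primary ones by 64.9-, 39.8- and 40.1-fold in the Aalter libraries and by 68.2-, 69.9- and 121-fold in the VE libraries. The groups did not overlap, with Aalter-1 close below VE-1 and VE-3 well above the rest. The mean log2 ratio was higher in VE by 0.83, or by 0.56 without VE-3 and 1.06 without Aalter-1. For tertiary over primary transcripts the ratios were 18.5, 10.9 and 10.997 in Aalter and 18.9, 19.2 and 34.2 in VE. Tertiary over secondary transcripts gave 0.285, 0.275 and 0.274 in Aalter and 0.277, 0.274 and 0.282 in VE. Those ranges overlapped, and the ratio of these sums was nearly the same in all 6 libraries. The sums are weighted to the most abundant genes and say little of Ltf and Camp. In Aalter, Lcn2 and Ngp had means of 1789 and 1292 CPM in a secondary sum of 3361 CPM. Mmp8 had 694 CPM in a tertiary sum of 936 CPM. With 3 libraries a group an exact permutation test cannot go below 0.10, so no p is given for these ratios.

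The granule genes were also set against S100a8 and S100a9, whose summed CPM serves as a rough reference for neutrophil RNA. Neutrophil reference markers did not place Aalter-1 alike. It was the lowest of its group for S100a8 and Retnlg and the highest for Csf3r, Cxcr2, Stfa2l1 and Il1r2, with S100a9 and Ly6g between. S100a8 and S100a9 both rose in VE, with log2 fold changes of 0.53 for S100a8 (adjusted p = 0.0398) and 0.64 for S100a9 (adjusted p = 0.0153). The primary granule genes together made 0.3099%, 0.334% and 0.321% of that sum in Aalter and 0.2401%, 0.235% and 0.149% in VE. The groups did not overlap, VE was lower, and the mean log2 ratio fell from Aalter to VE by 0.66, or by 0.43 without VE-3. The log2 of the reference sum was itself higher in VE by 0.59, so a gene whose CPM is the same in both groups is lower by that much on this scale. Each of the 4 primary granule genes, and Camp, was lower relative to this sum in all VE libraries than in all Aalter libraries, by log2 differences of -0.68 for Mpo, -0.77 for Elane, -0.38 for Prtn3, -0.89 for Ctsg and -0.22 for Camp. Of all genes tested, 58.8% were lower on this scale without overlap, so these 5 of the 10 granule genes are near the background. The secondary granule genes together made 20.1%, 13.3% and 12.9% of the sum in Aalter and 16.4%, 16.4% and 18.0% in VE. The groups overlapped there, and they did for Ltf, Ngp, Lcn2, Mmp8 and Mmp9 singly. In each case the overlap came from Aalter-1, which lay above all VE libraries, while Aalter-2 and Aalter-3 lay below them. The mean log2 ratio of the secondary granule genes to this sum was higher in VE by 0.17, or by 0.37 without Aalter-1. For Mmp8 the difference was 0.22, or 0.46 without Aalter-1.

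**Figure D4:**
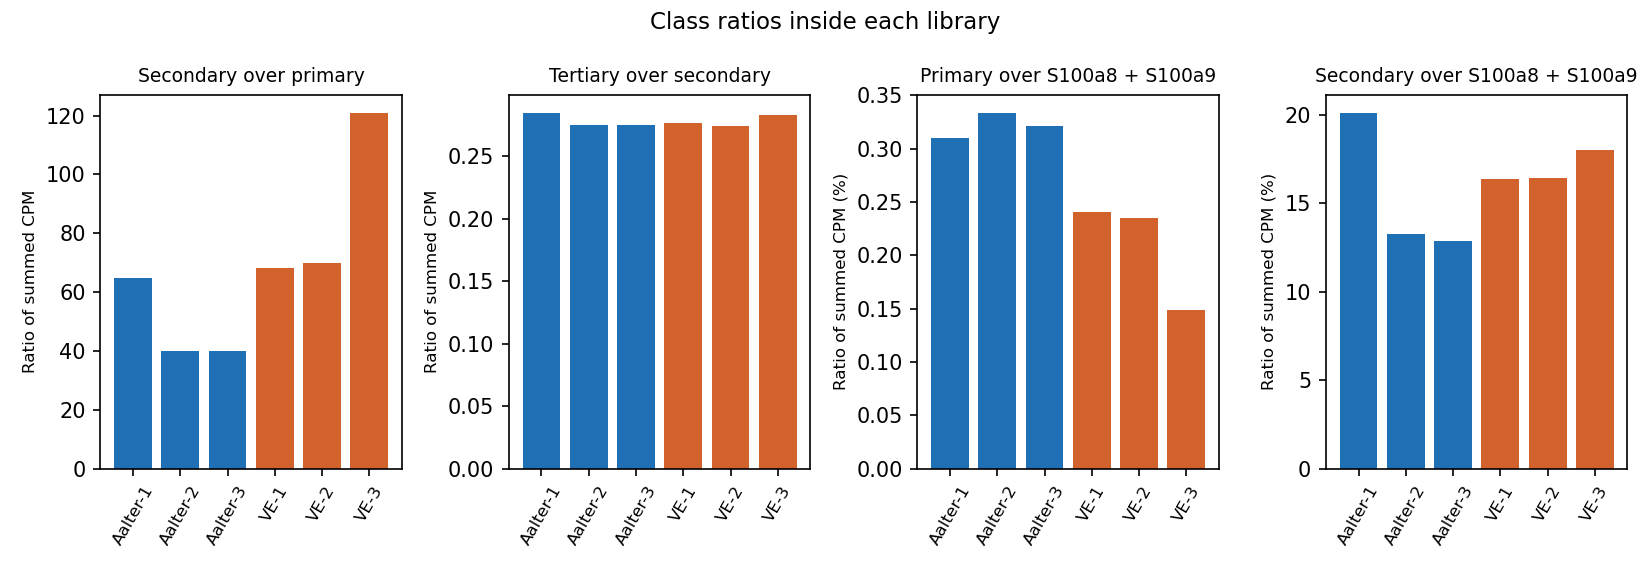
Ratios of summed CPM inside each of the 6 libraries, for secondary over primary, tertiary over secondary, primary over S100a8 plus S100a9 and secondary over S100a8 plus S100a9 (the last 2 in percent). Bars are single libraries, blue for Aalter and orange for VE. Secondary over primary is above 68 in all VE libraries and below 65 in all Aalter libraries, and tertiary over secondary is close to 0.28 in all 6.

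Single ratios between members showed where a class held together. Lcn2 over Ngp lay between 1.35 and 1.45 in all 6 libraries. Camp over Ngp was 0.0739, 0.112 and 0.134 in Aalter and 0.0791, 0.0787 and 0.0803 in VE. Camp varied against Ngp among the Aalter libraries and was steady among the VE libraries. Mmp8 over Mmp9 was 3.11, 2.70 and 2.74 in Aalter and 3.33, 3.37 and 3.18 in VE, higher in VE without overlap. With GC content and length trends removed the order turned, with log2 fold changes of 0.48 for Mmp8 and 0.85 for Mmp9. Which gene rose more thus depended on the processing.

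The likeness of 2 genes was measured as the root mean square difference of their log2 CPM over the 6 libraries, each gene centred on its own mean. This describes 6 libraries that share depth and composition, and no p is attached to it. The 6 pairs of primary granule genes lay 0.205 to 0.373 apart, with a median of 0.304. The 6 pairs of secondary granule genes had a median of 0.209, and all pairs over that value included Camp. Between classes, the 16 pairs of a primary and a secondary granule gene had a median of 0.564, and the 8 pairs of a primary and a tertiary granule gene 0.597. The 8 pairs of a secondary and a tertiary granule gene had a median of 0.0987, with Lcn2 and Mmp8 closest of all 45 pairs at 0.0213. Camp was nearest to Prtn3, at 0.247.

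**Figure D5:**
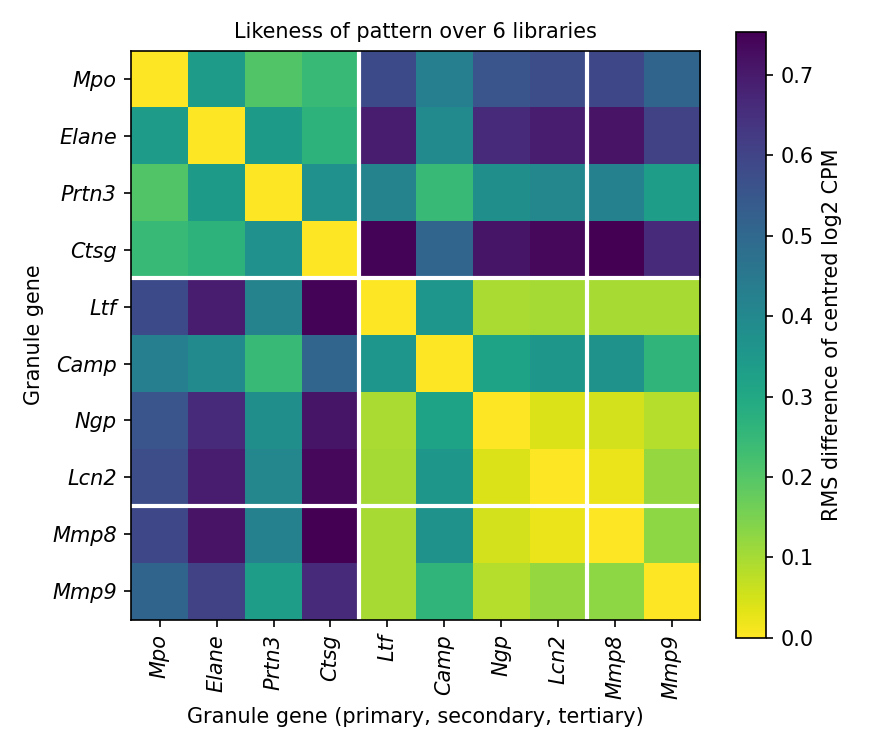
Root mean square difference of centred log2 CPM over 6 libraries for each pair of granule genes, with white lines between the classes. Yellow is most alike and dark is least. Ltf, Ngp, Lcn2, Mmp8 and Mmp9 form a yellow block, whereas Camp lies 0.247 to 0.507 from every other member.

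Among 11520 other genes, those with the pattern most like the mean of the secondary granule genes were Cd302, a C-type lectin receptor of myeloid cells, at 0.0196, Lamb3, a laminin chain, at 0.0319, and Pglyrp1, a granule peptidoglycan recognition protein, at 0.0323. Most like the tertiary granule genes were Cd300a, an inhibitory receptor, at 0.01355, Cd24a, a surface glycoprotein, at 0.0238, and Ncf4, a subunit of the phagocyte NADPH oxidase, at 0.0247. Within 0.1 of the secondary and tertiary mean pattern there were 249 and 257 genes. For the primary granule genes there were 0, and the nearest were H2bc18, a histone gene, at 0.105, Ccl24, an eosinophil-attracting chemokine, at 0.1096, and Sh3d21 at 0.126.

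Other genes of granule formation were followed in lists. Beside each count stands the share of all genes tested, 12.8% called higher and 19.5% lower. Leaving out any 1 library other than Aalter-1 gave 2 to 110 genes higher and 177 to 811 lower in all. The calls in these lists and among the cell markers below come from the fit on all 6 libraries and share that limit. Of the early granule and processing genes, 3 of the 5 tested rose and 0 fell. They were Ctsc, the dipeptidyl peptidase that activates granule serine proteases (log2 fold change 0.59 ± 0.13, adjusted p = 0.0183), Cd63, a membrane protein of primary granules (0.48 ± 0.11, adjusted p = 0.0192), and Srgn, the proteoglycan serglycin that packs granule contents (0.48 ± 0.13, adjusted p = 0.0296). These 3 genes are also expressed by many other cells. Ms4a3, a marker of granulocyte progenitors, had a log2 fold change of -0.29 ± 0.37 (adjusted p = 0.563), and its pattern lay 0.143 from Elane and 0.306 to 0.42 from the other primary granule genes. Ms4a3 was chosen after its values were seen. Bpi had a count of 0 in all 6 libraries, which allows up to 0.258 CPM in the shallowest, for counting error only.

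Of 10 other later granule genes, 9 rose and 0 fell. Cd177, a neutrophil surface and granule protein, had a log2 fold change of 0.85 ± 0.18 (adjusted p = 0.0163), Slc11a1, a metal transporter, 0.64 ± 0.14 (adjusted p = 0.0173), and Olfm4, olfactomedin 4 of a neutrophil subset, 0.998 ± 0.23 (adjusted p = 0.0192). Of 7 secretory vesicle and surface genes tested, 6 rose and 0 fell. Fpr1 and Fpr2, formyl peptide receptors, rose by 0.80 ± 0.16 (adjusted p = 0.0133) and 0.60 ± 0.13 (adjusted p = 0.0156), and Alpl, alkaline phosphatase, by 1.501 ± 0.36 (adjusted p = 0.0211) on the log2 scale. Alpl was low in level, with counts of 21, 10 and 14 in Aalter and 35, 23 and 58 in VE, the highest in VE-3.

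The transcription factors of granulocyte formation moved both ways, with 3 of 8 higher, 3 lower and 2 not past the test. Gfi1, a repressor needed for neutrophil formation that lymphoid cells also express, had 11.57, 44.4 and 38.9 CPM in Aalter against 4.37, 6.03 and 5.96 CPM in VE. Aalter-1 was the Aalter library nearest to VE, the groups did not overlap, and the gene fell (log2 fold change -2.53 ± 0.51, adjusted p = 0.0172). Cebpd, a C/EBP factor, rose by 0.48 ± 0.11 and Spi1, which encodes PU.1, by 0.46 ± 0.11, both with an adjusted p of 0.0209. Cebpe, the C/EBP factor required for secondary granule genes, rose from 2.88 ± 0.219 to 4.57 ± 0.735 CPM (log2 fold change 0.66 ± 0.19, adjusted p = 0.0378). Myb, which is active in progenitors, fell by 0.63 on the log2 scale (SE 0.17, adjusted p = 0.0313). Cebpe and Myb were named after their values were seen, because their kinds of motif were searched above.

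Of 6 inhibitors of granule proteases, 4 rose and 0 fell. Slpi, a secreted inhibitor of elastase and cathepsin G, rose by 0.86 ± 0.16 (adjusted p = 0.01097). Timp1, an inhibitor of Mmp9 and Mmp8, rose by 0.82 ± 0.11 (adjusted p = 0.00599), and Serpinb1a, an intracellular inhibitor of neutrophil serine proteases, by 0.34 ± 0.08 (adjusted p = 0.0183). Of the 36 genes of these 5 lists that were tested, 7 had a pattern nearest to the primary, 15 to the secondary and 14 to the tertiary granule genes. The same shares over all genes tested were not computed. The secondary and tertiary patterns were also close to each other, so nothing is read from these counts.

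Markers of other cells moved with the same comparison, and their part in the results was not tested. Of all genes tested, 12.8% were called higher and 19.5% lower. Of 8 neutrophil reference markers 7 rose, and their summed level was 24313 to 28811 CPM in Aalter and 34458 to 42509 CPM in VE. All 6 monocyte markers rose, from 7494 to 8185 CPM in Aalter to 10279.9 to 10575 CPM in VE, most of it from Chil3. Chil3 is also counted among the other later granule genes above. Csf3r and Cxcr2 are counted both as neutrophil reference markers and as secretory vesicle and surface genes. The counts of these lists are thus not separate from each other. Of 6 macrophage markers Adgre1 rose and Mrc1 fell (231 to 263 CPM in Aalter, 292 to 355 CPM in VE), and of 5 eosinophil markers 0 passed (32.02 to 38.9 and 33.7 to 37.3 CPM). Of 4 mast cell and basophil markers tested, Mcpt8 and Ms4a2 rose and Cma1 fell, with a summed level of 30.5 to 38.5 CPM in Aalter and 31.9 to 35.7 CPM in VE. Of 6 epithelial markers, Scgb1a1, the club cell secretory protein, fell (summed level 221 to 395 CPM in Aalter, 153 to 157 CPM in VE). Of 6 proliferation and progenitor markers Ccnb1 and Cd34 rose (252 to 313 CPM in Aalter, 317 to 371 CPM in VE). No marker of these lists was at 0 in all libraries.

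In position, 4 of the 10 genes lie on chromosome 9, 2 on chromosome 10 and 2 on chromosome 2. Ngp lies 570 kb from Camp and 596 kb from Ltf. Of 18 distinct genes that flank the members, 12 were tested, of which 3 rose (Mcpt8, Ccrl2 and 1110008P14Rik), 2 fell (Ptpn23 and Zfp335) and 7 did not pass, against 12.8% higher and 19.5% lower among all genes tested, and nothing is read from so few genes. Ccrl2, next to Ltf, had a log2 fold change of 0.78 (adjusted p = 0.0125), and Mcpt8, a basophil protease gene next to Ctsg, had 0.51 (adjusted p = 0.0289).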

How the data were processed

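The authors deposited 1 table with an estimated count for each gene in each library, and 10.5% to 12.2% of values in a library were not whole. They were rounded. The genome build is mm10, per the submitters' processing notes, and which aligner, counter and strand setting were used is not given in the sources used here. Of the columns of values, 0 were left unused. Columns named Aa were matched to the samples titled Aalter by replicate number. In 1 row a stray extra cell was ignored. Library totals ran from 11617074 to 16205053, and 3 counts equal 0.185 to 0.258 CPM.

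Genes were tested with edgeR 4.0.16 (R 4.3.3): TMM scaling, filterByExpr, robust quasi-likelihood fits with the group as the only term on all 6 libraries, and Benjamini-Hochberg adjustment over 12551 genes at 0.05. The scripts were tested on simulated data. They recovered 52.9% of genes given a log2 change of 1 and 96.9% of those given 2. Of the simulated calls, 6.29% were false. Smaller changes, the size of those of the granule genes, were not simulated. The simulation changed 200 genes, gave all genes the same dispersion and set no library apart as Aalter-1 is here. Its share of false calls therefore does not describe the calls in these data. CPM are TMM-scaled, means are ± SD (n = 3), errors of fold changes are SE, and per-kb levels use annotated transcript lengths. Coordinates are from GENCODE vM21 (mm10) and promoters from RefSeq (GRCm38.p6). The 10 members were named whatever their values, with up to 3 genes of smallest p from each context list and the 3 genes most alike per class. The members and lists were chosen with earlier results of these data known. Alternatives used DESeq2 1.42.0, limma 3.58.1 (voom), other scaling and filters, a replicate block, GC content and length correction, and libraries left out.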

Additional observations from a re-analysis of the deposited data

How the results depend on the processing

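Each of the 10 genes was refitted under 16 alternatives. RLE scaling, DESeq2, limma-voom, both other filters on low counts and the replicate block alone kept all 5 calls. The labels do not say whether replicate numbers pair the libraries. Same-numbered deviations from the group means correlated at 0.297, 0.259 and 0.0555, which cannot decide it with 3 libraries a group. The replicate block gave 1193 genes higher, 2074 lower and 5 granule genes. Library size scaling gave 495 genes higher. Removing GC content and length trends gave 1690 genes higher and 1604 lower, and the replicate block with those trends removed gave 1291 lower and 3 granule genes higher. Leaving out 1 library gave 2 to 3561 genes higher, 177 to 3652 lower and 0 to 5 granule genes higher, each fit having 1 library fewer. Without both libraries numbered 1, 3404 genes were called higher, and 1 granule gene, Elane, was called lower. The log2 fold change of Mpo was -0.01 and turned to 0.26 with GC and length trends removed, 0.18 with the replicate block as well, 0.0013 without Aalter-2, 0.01 without Aalter-3 and 0.25 without VE-3. Over the fits without 1 library Mpo ran from -0.23 to 0.25 and Ctsg from -0.54 to 0.051, the latter without VE-3. The tertiary to secondary log2 ratio differed by -0.00062 between groups, by 0.054 as a mean of log2 CPM, 0.047 without Lcn2 and -0.17 with Mmp8 among the secondary granule genes. The secondary to primary difference ranged from 0.56 to 1.203 over the other averaging, the other groupings of genes and the libraries left out. GC content and length correction was not applied to either ratio. Depth limits the primary granule genes, at 87 to 522 counts a library, and 3 libraries a group limit every call.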
